A study of Mus musculus with 2 samples.

Results

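A footprint is a short stretch of accessible DNA that DNase I cut less often than its surroundings, as happens where a protein sits on the DNA. The wide footprints described here were chosen by 2 measured values, their width and their overlap between libraries. Each is an autosomal footprint of 20 bp or more that overlapped a footprint of 20 bp or more in the other library by at least 0.5 of both widths. They numbered 40506 in each of the 2 libraries and formed 40506 pairs. That is 57.1% of the 70992 wide autosomal footprints of replicate 1 and 77.2% of the 52473 of replicate 2. Over all widths, the autosomes held 319579 footprints in replicate 1 and 247199 in replicate 2.

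Both libraries were made by DNase-seq from lung tissue of males, 14 days old, of B6CASTF1/J, a hybrid of a C57BL/6J and a CAST/EiJ parent. The assay sequences the ends that DNase I leaves in nuclei. Replicate 1 is labelled as a male with no pool named, and replicate 2 as a pool of 3 males. Their labels name a single donor record, which leaves unknown if any animal is in both, and the spread between them may be partly technical. They are 1 group, so the wide shared footprints are set beside the other footprints of the same library and no p-value is given; an exact sign test over 2 libraries could not go below 0.5. Marker promoters of lung cell types were largely open, with a peak within 1 kb for 5 of 6 AT2 markers and 5 of 5 mesenchymal markers in both libraries. Endothelial markers were open at 4 of 5 and ciliated markers at 2 of 3 in both, while liver, heart and leukocyte markers were open at 0 of 3 each and red cell markers at 1 of 2 in both. AT1 markers were open at 5 of 5 in replicate 1 and 4 of 5 in replicate 2, and lung epithelium markers at 2 of 2 and 1 of 2, with Aqp5 and Nkx2-1 closed in replicate 2. Positions are on mm10, and the sequences are those of the C57BL/6J reference, so the other parental allele of the hybrid is not shown. Read depth is unknown, and the 95% intervals below are exact Clopper-Pearson intervals for counting footprints only.

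The width of a footprint depends on how much DNA a bound protein or a group of neighbouring proteins covers. CTCF, a zinc finger protein that anchors chromatin loops and marks insulators, contacts an unusually long site. REST, which keeps neuronal genes silent outside neurons, and the NFI proteins, which bind as dimers to both arms of a palindrome, also have long sites. NRF1, KLF and SP proteins, CREB and ATF proteins, ZBTB33 (Kaiso) and ZNF143 bind mostly at gene starts, and RFX proteins control many genes of motile cilia.

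The following sequences are shown because they carry consensus sequences compared below, each in 1 wide shared footprint. Each is the GRCm38 sequence of the bases covered in either library, on the plus strand, with the consensus in capitals. For each consensus shown the pair in the highest-scoring peaks was taken, and for NRF1 and ZBTB33 the next one clear of untranslated regions. A match is a description of the letters, not proof of a bound site.
CTCF, chr8:20122176-20122220, between genes: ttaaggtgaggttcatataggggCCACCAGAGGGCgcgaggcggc
REST, chr14:63681615-63681646, in an intron: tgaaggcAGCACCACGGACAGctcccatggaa
NFI, chr16:4542001-4542036, before Srl: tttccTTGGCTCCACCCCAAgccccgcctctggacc
NRF1, chr7:45395782-45395811, before Snrnp70: accaggggcactGCGCATGCGCcaaaactg
CREB/ATF, chr16:22009403-22009426, before Senp2: agaaggTGACGTCAacggcttcta
ZBTB33, chr9:54863674-54863716, before Ireb2: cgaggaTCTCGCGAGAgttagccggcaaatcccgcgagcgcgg
RFX, chr11:117963548-117963572, between genes: cccGTTGCCGTGGCGACggcgctcc
ZNF143, chr6:134830055-134830101, before Crebl2: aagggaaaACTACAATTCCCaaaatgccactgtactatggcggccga
The members of a pair need not be equally wide: at Crebl2 the footprint was 47 bp in replicate 1 and 29 bp in replicate 2, and at the REST site it was 32 bp in both.

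CTCF was the most frequent consensus in the wide shared footprints. A whole CTCF consensus lay within the 41 bp around the centre of 13.3% of them in both libraries (5368 of 40506; interval 12.9 to 13.6%). Among all other footprints the share was 1.16% in replicate 1 (3237 of 279073; interval 1.12 to 1.20%) and 0.892% in replicate 2 (1844 of 206693; interval 0.852 to 0.934%). Over all autosomal footprints it was 2.69% and 2.92% in replicates 1 and 2. In windows of the same size 100 bp to either side of the wide shared footprints, the consensus was found in 0.175% and 0.202%. With 1 mismatch allowed, 30.4% of the wide shared footprints held it in each library, against 4.94% and 4.07% of the other footprints of replicates 1 and 2. The equal shares of the libraries follow from the pairing, since both members of a pair sit on the same DNA; 5363 pairs held the consensus in both members.

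The search covered 37 consensus sequences on both strands. In both libraries, 17 were more frequent in the wide shared footprints than in all other footprints, and 20 were less frequent. Any ratio above or below 1 was counted, and some were close to 1. RUNX was 1.02 and 1.01 times as frequent in replicates 1 and 2, AP-2 1.14 and 1.07, SRF 0.994 and 0.913 and NKX2 0.936 and 0.975 times. HSF was held by only 5 wide shared footprints in each library and NF-kappaB by 5 and 7. At least 2 times as frequent in the wide shared footprints of both libraries were CTCF, REST, NRF1, NFI, KLF/SP, ZBTB33, CREB/ATF and E2F. KLF/SP (GGGGCGGGG) was held by 5.70% and 5.78% of the wide shared footprints of replicates 1 and 2, against 1.41% and 1.59% of all others. NRF1 was held by 2.87% and 2.91%, against 0.416% and 0.542%. NFI (1 mismatch allowed) was held by 2.42% and 2.40%, against 0.965% and 0.618%.

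These shares and ratios depended on the score of the peak. In peaks of the top score decile, a comparison chosen after seeing the data, E2F was 1.36 and 1.16 times as frequent in wide shared as in all other footprints of replicates 1 and 2, and RFX 2.59 and 2.43 times, so that RFX took the place of E2F among the 8 at 2 times or more. There NFY (0.87 and 0.84 times), YY1, ZNF143, RUNX and AP-2 were less frequent in wide shared footprints in both libraries, while CEBP, MEF2, NRF2, TCF, TEAD (1.06 and 1.01 times) and the TATA box (1.52 and 1.49 times) were more frequent. ETS, SOX, TBX, SRF, the glucocorticoid receptor and NF-kappaB changed direction in 1 library. Some of these directions rest on few sites. Over all peaks, MEF2 was held by only 12 and 11 wide shared footprints of replicates 1 and 2 and the glucocorticoid receptor by 12 and 10. TBX was held by 26 and 27, TCF by 45 and 44 and NF-kappaB by 5 and 7. Mean shares over the libraries were also taken in the 10330 pairs whose peaks were of the top decile in both libraries. They were 11.8% for KLF/SP, 7.75% for NRF1, 2.69% for CREB/ATF, 0.828% for ZBTB33, 0.741% for NFI and 0.0678% for REST. The REST share there rests on few footprints.

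Rarer sites were also more frequent in the wide shared footprints. CREB/ATF (TGACGTCA) was held by 1.21% and 1.22% of the wide shared footprints of replicates 1 and 2, against 0.180% and 0.187% of all others. ZBTB33 was held by 98 and 97 wide shared footprints, 0.242% and 0.239%, against 57 and 67 of all others, 0.0204% and 0.0324%. REST (1 mismatch allowed) was held by 211 and 213 wide shared footprints, 0.521% and 0.526%, against 0.234% and 0.152% of all others. RFX (1 mismatch allowed) reached 0.639% and 0.652%, against 0.296% and 0.332%.

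Of the 20 less frequent consensus sequences, 4 are given here, chosen after their values were seen. AP-1 (TGACTCA or TGAGTCA), bound by FOS and JUN proteins, was held by 0.523% and 0.518% of the wide shared footprints of replicates 1 and 2, against 1.01% and 1.03% of all others. FOX (TGTTTAC), bound by forkhead proteins such as the lung factors FOXA2 and FOXF1, was held by 0.239% and 0.227%, against 0.497% and 0.541%. TEAD was held by 0.862% and 0.867%, against 1.56% and 1.51%, a difference not seen in peaks of the top decile, and GATA by 0.153% and 0.165%, against 0.429% and 0.462%. These 4 consensus sequences have 7 or 8 letters. Of the others with 8, some were more frequent in the wide shared footprints, such as CREB/ATF, and some less frequent, such as SOX. Whether length bears on these shares was not tested. The 4 were more frequent in the flanking windows of the wide shared footprints than in the footprints themselves. Flank shares were 0.583% and 0.576% for AP-1 and 0.483% and 0.476% for FOX. They were 1.08% and 1.08% for TEAD and 0.537% and 0.532% for GATA.

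**Figure D1:**
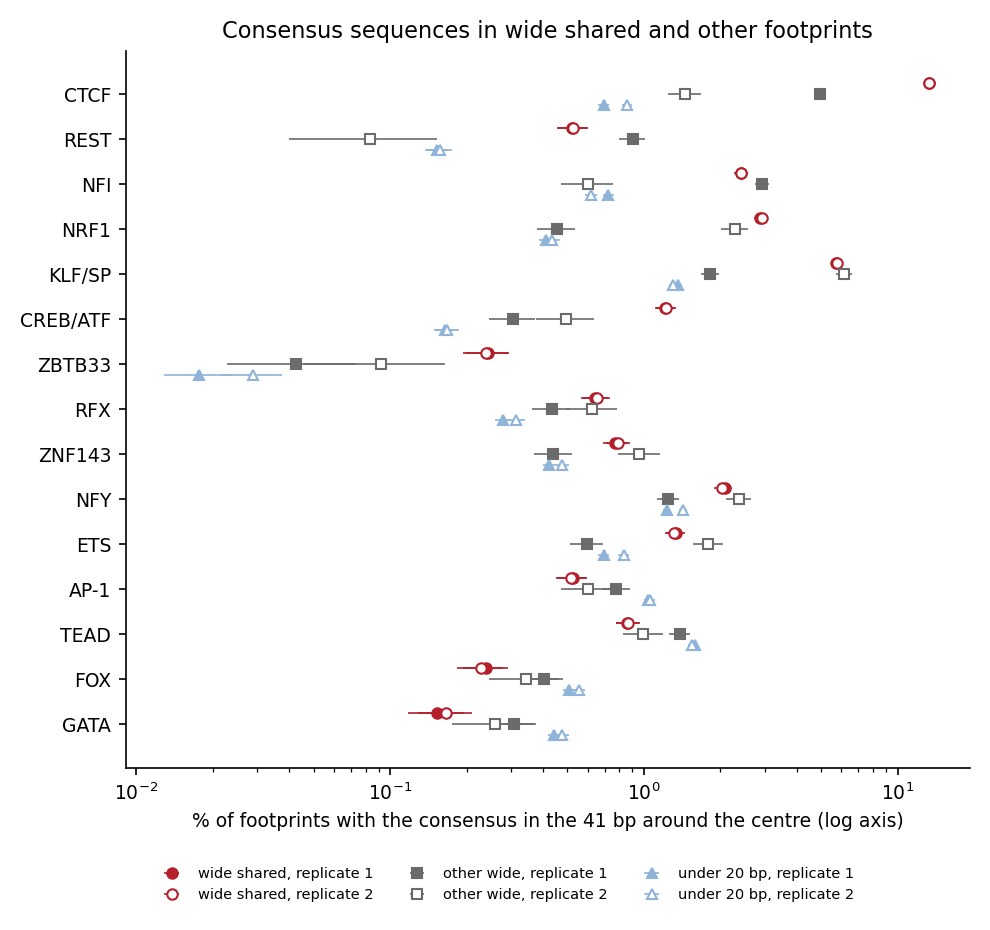
Share of footprints that held each of 15 consensus sequences within 41 bp of the centre, on a log axis, for wide shared footprints (red circles), other wide footprints (grey squares) and footprints under 20 bp (blue triangles); filled symbols are replicate 1, open symbols replicate 2, and bars are 95% Clopper-Pearson intervals. The wide shared footprints lie at 13.3% for CTCF in both libraries, while the other wide footprints of the libraries lie apart, at 4.96% and 1.45%.

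No consensus of the search lay in 64.4% of the wide shared footprints of each library, against 84.8% and 84.3% of all other footprints of replicates 1 and 2. Counting CTCF with 1 mismatch as well, 48.9% of the wide shared footprints held none. The 10 octamers with the largest ratio of their share in wide shared to that in all other footprints, both strands taken as 1, were led by AGGTGGCG (2.85% and 2.86% against 0.318% and 0.285%) and CAGGGGGC (5.19% and 5.21% against 0.615% and 0.560%). All of the 10 except TATCGCGA fit stretches of the CTCF consensus, AGGTGGCG and AGGGGGCA with 1 base beyond it. TATCGCGA was in 41 and 40 wide shared footprints. Among wide shared footprints with no CTCF consensus at 1 mismatch, the leading octamers after TATCGCGA were GACGTCAC and TGACGTCA, which hold the CREB/ATF letters. CGCATGCG, the core of NRF1 sites, was seventh, with 458 and 465 footprints.

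Widths of the wide shared footprints ran from the bound of 20 bp to 69 bp in replicate 1 and 77 bp in replicate 2, with a median of 28 bp in both. The most common width was 25 bp in replicate 1 (2717 footprints) and 24 bp in replicate 2 (2837). Both members reached 40 bp in 2882 pairs, 50 bp in 99 and 60 bp in 5. The members of a pair had the same bases at both edges in 3067 pairs, at exactly 1 edge in 15279 and at neither in 22160, and both edges lay within 2 bp in 19143 pairs. The median overlap was 0.893 of the wider member. Near the bounds of the rule, 3383 overlaps of at least 0.5 of both widths had a narrower member of exactly 20 bp, and 3078 more missed the rule because 1 member was 19 bp wide. An overlap of 0.50 to 0.55 of the wider member was found in 729 pairs, and 346 overlaps of 0.45 to under 0.50 missed it.

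What the footprints held changed with their width, and not in 1 direction. The CTCF consensus was in 1.99% and 5.07% of those of 20 to 21 bp in replicates 1 and 2, in 26.8% and 22% of those of 31 to 33 bp, in 6.2% and 9.85% of those of 37 to 39 bp, and in 19.5% and 19.6% of those of 43 to 45 bp. With 1 mismatch allowed it was in 53.7% and 46.9% at 31 to 33 bp and in 54.7% and 53.1% at 43 to 45 bp. The share within 1 kb of a gene 5′ end went the opposite way: 28.3% and 34.2% at 31 to 33 bp, 47.4% and 50.3% at 37 to 39 bp, and 25.8% and 32.9% at 43 to 45 bp. NFI was most frequent at 25 to 27 bp, with 5.30% and 3.80%. KLF/SP was in 11.2% and 5.70% of those of 20 to 21 bp and 9.03% and 9.91% of those of 37 to 39 bp, against 2.54% and 3.94% of those of 31 to 33 bp.

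**Figure D2:**
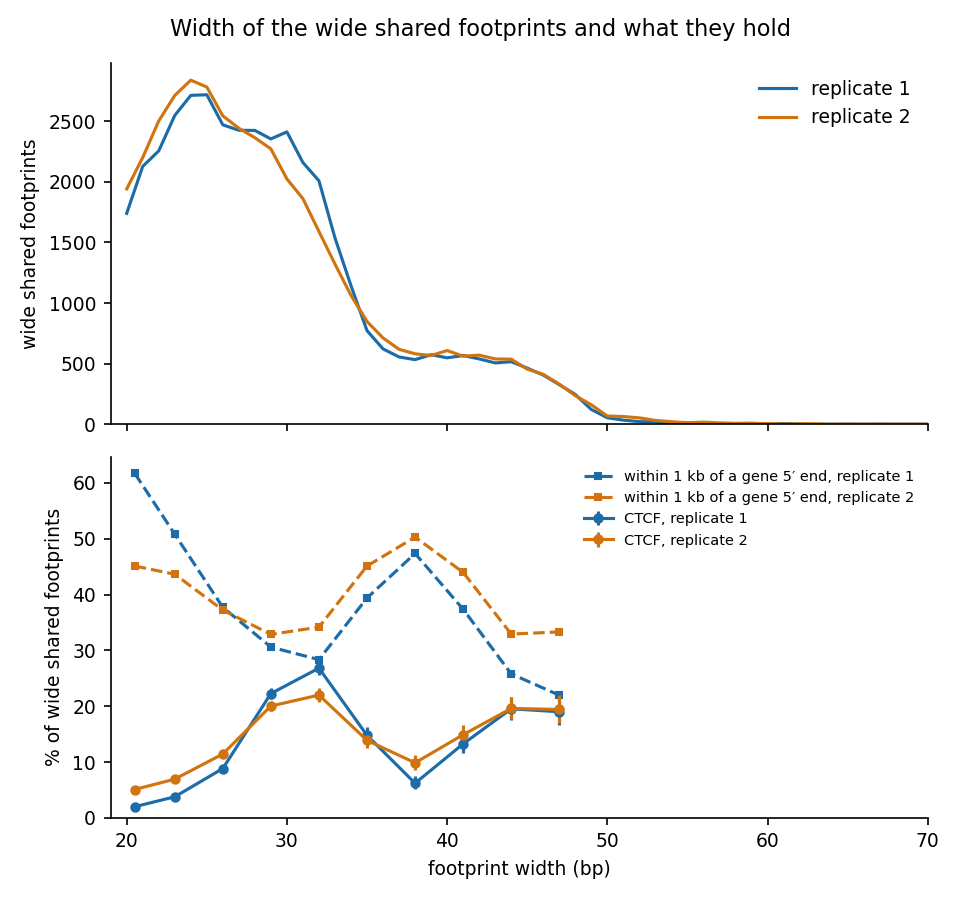
Top, number of wide shared footprints at each width in bp, for replicate 1 (blue) and replicate 2 (orange). Bottom, share of them with a CTCF consensus (solid, with 95% Clopper-Pearson intervals) and share within 1 kb of a gene 5′ end (dashed), in width classes of 2 to 3 bp. The CTCF share is high at 31 to 33 bp (26.8% and 22%) and again at 43 to 45 bp (19.5% and 19.6%), where the share near gene 5′ ends is low.

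The edges of CTCF footprints also fell in 2 places. Of the wide shared footprints, 5363 in each library had exactly 1 CTCF consensus that lay at least 0.5 inside. On the 3′ side of the consensus the edge lay at a median of 12 bp in replicate 1 and 11 bp in replicate 2. On the 5′ side the edge most often lay 5 bp out, in 1578 and 1444 footprints, became rare at 12 bp, with 10 and 17, and was more common again at 22 bp, with 188 and 186. An edge 15 bp or more out on the 5′ side was found in 838 footprints of replicate 1 (15.6%; interval 14.7 to 16.6%) and 1014 of replicate 2 (18.9%; interval 17.9 to 19.98%). These extended CTCF footprints had a median width of 43 bp in both libraries, against 30 and 29 bp for those with the 5′ edge 3 to 9 bp out. Of 5357 pairs with 1 consensus in both members, 667 were extended in both libraries, 169 in replicate 1 only, 343 in replicate 2 only and 4178 in neither.

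Some letters under the extension were more frequent than at the same places before the consensus in footprints with the near edge. In extended CTCF footprints the base 12 bp before the consensus was T in 75.3% and 67.5% of replicates 1 and 2, against 40.9% and 40.8% of those with the near edge. The base 10 bp before it was C in 70.4% and 67.0%, against 36.8% and 36.2%, and the base 16 bp before it was G in 72.2% and 64.7%, against 34% and 33.7%. The letters TGCANT starting 17 bp before the consensus were in 167 extended footprints of replicate 1 (19.9%; interval 17.3 to 22.8%) and 152 of replicate 2 (14.99%; interval 12.8 to 17.3%). With the near edge they were in 54 (1.25%; interval 0.943 to 1.63%) and 58 (1.48%; interval 1.13 to 1.91%). Those letters were picked from the same footprints after their bases were seen, so they are a description of them. The peaks of extended CTCF footprints had a median score percentile of 85.1 and 77.9, against 80.7 and 68.9 for those with the near edge.

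Of the pairs below, the first 2 were extended in both libraries with the letters TGCANT, and the last 2 had the near edge and lay over 1 kb from a gene 5′ end; each stood in the highest-scoring peaks of its kind. Capitals mark the consensus and, in the extended ones, the 6 letters upstream; the sequence on chromosome 17 is of the minus strand and the others are of the plus strand.
Extended, chr7:49778219-49778264, before Prmt3: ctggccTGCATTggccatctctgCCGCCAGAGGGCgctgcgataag
Extended, chr17:29095625-29095671, in an intron: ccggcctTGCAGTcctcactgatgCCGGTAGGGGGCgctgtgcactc
Near edge, chr19:5529506-5529538, between genes: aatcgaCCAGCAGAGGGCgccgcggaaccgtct
Near edge, chr10:128410014-128410048, in an intron of Nabp2: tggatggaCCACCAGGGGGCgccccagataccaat
The footprint at Prmt3, which encodes an arginine methyltransferase, was 45 bp wide in both libraries, and that on chromosome 19 was 33 bp wide in both.

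**Figure D3:**
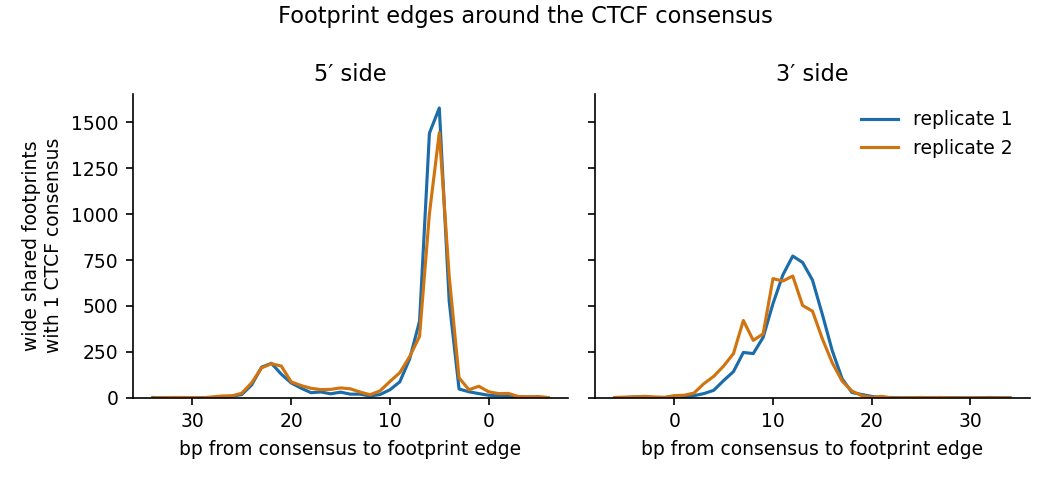
Number of wide shared footprints with 1 CTCF consensus by the distance in bp from the consensus to the footprint edge on the 5′ side (left, axis reversed) and on the 3′ side (right), for replicate 1 (blue) and replicate 2 (orange). The 5′ edge has a main mode at 5 bp and a smaller one at 22 bp in both libraries, while the 3′ edge has its mode at 12 bp.

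The edges lay elsewhere around other consensus sequences. The REST footprints ended a median of 7 and 6 bp before the consensus and 8 bp after it, which gave a median width of 30 and 29 bp in replicates 1 and 2. NFI footprints ended 5 bp out on the 5′ side in both libraries and were 25.5 and 25 bp wide. NRF1 footprints ended 6 and 7 bp out on each side and were 24 and 27 bp wide. ZNF143 footprints were lopsided, with 2 and 3 bp on the 5′ side and 16 and 17 bp on the 3′ side. NFY sites, which recruit the CCAAT-box factor NF-Y, sat in footprints with 13 and 12 bp before and 12 and 13 bp after the site, at a median width of 31 bp.

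By position, 39.6% of the wide shared footprints of each library had their centre within 1 kb of the 5′ end of a protein-coding or long noncoding gene (16033 and 16034 of 40506; interval 39.1 to 40.1% in both). All other footprints were within 1 kb in 27.2% of replicate 1 and 31.6% of replicate 2, and the footprints of all widths together in 28.8% and 32.9%. Beyond 1 kb, introns held 29.996% and 29.98% of the wide shared footprints of replicates 1 and 2, against 38.1% and 35.6% of all others. Between genes lay 24.8%, against 27.9% and 26.2%, and in coding exons 1.42%, against 2.18% and 1.90%. Untranslated regions held 2.55% and 2.57%, against 2.74% and 2.78%. Mean GC content of the 41 bp was 61.7% and 61.8%, against 56.5% and 57.4% for all other footprints and 56.3% and 64% for the other wide ones, so in replicate 2 the other wide footprints had the higher GC content.

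Near gene 5′ ends the wide shared footprints lay mostly upstream. Of those within 1 kb, 65.5% and 65.6% were upstream of the 5′ end in replicates 1 and 2, against 48.9% and 50.3% of all others. The 50 bp just before the 5′ end held 8.14% and 8.19% of all wide shared footprints, against 3.03% and 3.81% of the others, while the bases 50 to 99 bp after it held 2.23% of wide shared footprints in both libraries, against 2.42% and 3.00%. The median position of the footprint centre within 1 kb differed by consensus. It was 54 and 53 bp upstream with NFY, 36 bp with KLF/SP, 23 and 22 bp with CREB/ATF, and 15 and 16 bp with NRF1. For all other footprints with the same consensus it was 58 and 56 bp, 23 and 25 bp, 20 and 22 bp, and 11 and 11.5 bp upstream. YY1 is a zinc finger factor known for sites in the first transcribed bases. With YY1 the median was downstream, at 48 and 46 bp, over 46 wide shared footprints in each library. For all other footprints with YY1 it was 39 and 42.5 bp downstream.

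**Figure D4:**
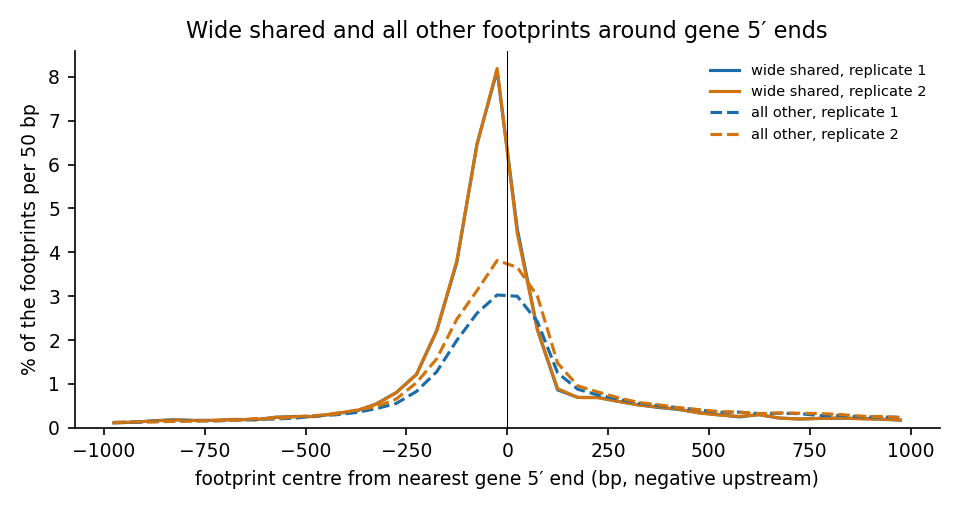
Share of footprints per 50 bp by the distance of their centre from the nearest gene 5′ end (negative upstream), for wide shared footprints (solid) and all other footprints (dashed) of replicate 1 (blue) and replicate 2 (orange). The wide shared footprints have their highest share, 8.14% and 8.19%, in the 50 bp before the 5′ end, where the others have 3.03% and 3.81%.

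The consensus sequences fell into those at gene starts and those away from them. Within 1 kb of a gene 5′ end lay 93.9% and 93.8% of wide shared footprints with ZBTB33, 87.8% in each library with NRF1, 80.8% and 80.9% with KLF/SP, and 74.6% and 74.9% with CREB/ATF. The share was 54.8% and 56.8% for RFX, 20.9% and 20.7% for REST, 12.4% and 12.2% for NFI, and 10.7% and 10.8% for CTCF. Beyond 1 kb, 19.6% of the wide shared footprints of each library held the CTCF consensus, against 1.47% and 1.17% of the other footprints there. Within 1 kb it was in 3.59% and 3.61%, against 0.328% and 0.285%, so the CTCF share was higher in wide shared footprints near gene starts and away from them.

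Most wide shared footprints lay in peaks, the accessible sites that the authors called. Their whole width was inside a peak of the same library in 90.5% of replicate 1 (interval 90.2 to 90.8%) and 89.5% of replicate 2 (interval 89.2 to 89.8%), with a mean of 90.01 ± 0.66% (SD, n = 2). All other footprints were inside in 66.6% and 68.6%, and the footprints of all widths in 69.6% and 72.0%. Against the larger peak list the shares were 90.7% and 91.0%, against 85.1% and 84.8%, so much of that gap depends on the list. In replicate 1, 1793 wide shared footprints touched no peak, a median of 34 bp from the nearest one, and in replicate 2, 2537, a median of 39 bp away. Inside peaks their centre was a median of 16 and 17 bp from the middle of the peak, against 26 and 32 bp for the other wide footprints and 45 bp for those under 20 bp in both libraries.

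The peak that held one stood at a median score percentile of 85.0 in replicate 1 and 80.9 in replicate 2 among the autosomal peaks of its library, 83.0 ± 2.9 (SD, n = 2), against 60.1 and 62.8 for all other footprints. For the other wide footprints it was 64.3 and 81.5, so in replicate 2 these stood as high as the shared ones. In the top score decile, 88.8% and 85.4% of the peaks held 1 or more, and in the lowest decile 0.0775% and 0.512%. Of the 92461 and 75564 autosomal peaks, 29299 and 28620 held at least 1, 1154 and 1284 held 3 or more, and the most in 1 peak was 7 in both libraries. Over the 34822 pairs inside a peak in both libraries, the percentiles of the members correlated with Pearson's r = 0.910 and Spearman's rho = 0.948, over the same sites in both libraries. The percentile was higher in replicate 1 for 78.2% of them. Each percentile is a rank within the list of its own library, and the lists differ in length, so this does not compare accessibility.

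CTCF and gene starts took different parts of the score range. In peaks above percentile 90, 70.9% and 79.9% of the wide shared footprints were within 1 kb of a gene 5′ end and 7.38% and 3.27% held the CTCF consensus, against 0.202% and 0.190% of the other footprints in those peaks. Between percentiles 70 and 80, 12.7% and 15.3% were within 1 kb and 20.9% and 22% held it. Up to percentile 50, the libraries stood apart, with the consensus in 9.50% (interval 8.18 to 10.97%) of 1768 in replicate 1 and 20.8% (interval 19.7 to 21.99%) of 4889 in replicate 2. Peaks with a single wide shared footprint had the CTCF consensus in 19.8% and 19.97% of them and were near a gene 5′ end in 22.5% of both; in peaks with 3 or more the shares were 1.80% and 2.14%, and 78.7% and 76.8%.

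**Figure D5:**
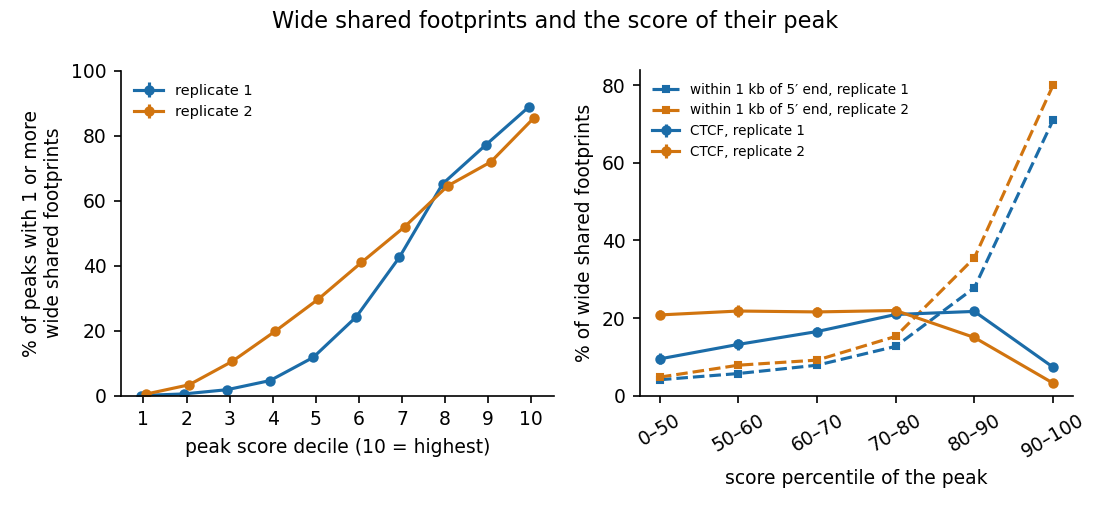
Left, share of peaks with 1 or more wide shared footprints by score decile of the peak, 10 being the highest. Right, share of wide shared footprints with a CTCF consensus (solid) and within 1 kb of a gene 5′ end (dashed) by the score percentile of their peak. Replicate 1 is blue, replicate 2 orange, and bars are 95% Clopper-Pearson intervals; the peaks of the top decile hold one in 88.8% and 85.4%.

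Wide footprints that did not meet the pairing rule, which include those whose partner was narrower than 20 bp, were a different mixture in each library. The 30486 of replicate 1 were near a gene 5′ end in 23.5% and held CTCF in 4.96%, NFI in 2.92%, REST in 0.902% and KLF/SP in 1.83%. The 11967 of replicate 2 were near one in 51.9% and held CTCF in 1.45%, NFI in 0.602%, REST in 0.0836% (10 footprints) and KLF/SP in 6.16%. The wide shared footprints lay outside both for CTCF, at 13.3%, and CREB/ATF, at 1.21% and 1.22% against 0.305% and 0.493%. For REST and NFI they lay between the 2 unpaired sets, and for KLF/SP, RFX and ZNF143 they did not exceed the wide footprints of replicate 2 beyond the intervals. The shared footprints were wider, with a median of 28 bp in both libraries against 24 and 23 bp in the unpaired sets. Width is part of the rule, which leaves out footprints whose partner fell under 20 bp, so this difference is only a description.

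Transfer RNA genes were a further place with wide shared footprints, looked at after other results of these footprints had been seen. Their promoters lie inside the gene, where the polymerase III factor TFIIIC binds a B box with the letters GGTTCGA. Of 386 autosomal tRNA genes, 165 had a wide shared footprint centred within 50 bp in both libraries (42.7%; interval 37.8 to 47.9%), and 221 and 207 had a footprint of any width. Such footprints numbered 252 and 253, which is 0.622% and 0.625% of the wide shared ones, against 0.139% and 0.163% of all others. GGTTCGA itself was in 0.309% and 0.301% of the wide shared footprints, against 0.0233% and 0.0174% of all others, and 89.6% and 91% of these wide shared ones were at tRNA genes. The 2 in the highest peaks are printed along the tRNA strand, with GGTTCGA in capitals.
Leucine tRNA gene, chr7:120917564-120917604: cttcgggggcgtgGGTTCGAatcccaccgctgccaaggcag
Arginine tRNA gene, chr7:79466453-79466496: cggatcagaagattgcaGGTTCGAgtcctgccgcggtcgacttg
Near-identical tRNA genes share reads, so which copy was protected is uncertain.

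The 10 widest pairs had a mean width of 59 to 68 bp. The pair at chr9:3024395-3024463 was 67 and 69 bp wide, lay in a coding exon of the predicted gene Gm10718, was wholly soft-masked as repeat in the reference, and was not wholly inside a peak in either library. The pair at chr9:56223580-56223648, in an intron near Gm29322, was 69 and 67 bp wide in peaks of score 2.28 and 2.29, at percentiles 70.6 and 69.8. The third, 65 bp in both libraries at chr11:115160149-115160213, was in an intron, 3160 bp upstream of Slc9a3r1, which encodes a scaffold of apical membrane proteins. The others were within 1 kb of the 5′ ends of R3hdm1, Epb41, Agbl5, Mon1b, Erlin2, Dcaf7 and Abcb9. All of these were wholly inside peaks of both libraries, at percentiles from 92.3 up, except the pair at Dcaf7, 43 and 77 bp wide, which was wholly inside a peak in replicate 1 only.

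Among the pairs in the highest peaks, several shared a peak. The Mplkip peak, of score 32.4 and 34.1, held 3 pairs upstream, the nearest at 117 bp in replicate 1, and the Dnpep peak, of score 29.2 and 40.05, held 2 downstream of the 5′ end. Single pairs lay 47 bp after the 5′ end of Trpm8, the cold-sensing channel, 129 bp before that of Fzr1, an activator of the anaphase-promoting complex, and between genes 61618 bp upstream of Gm15319. Each of the 20 sequences of the widest and the highest pairs occurred once in the autosomes as an exact match, which does not count near-identical copies.

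Among protein-coding genes on the autosomes, 57.3% (11916 of 20807) were nearest to at least 1 pair, and 36.2% had a pair within 1 kb of the 5′ end. Ptma, which encodes prothymosin alpha, was nearest to the most, 25 pairs over chr1:86487546-86532640, of which 5 lay within 1 kb and 6 held the CTCF consensus in both libraries. Klrb1c, a natural killer cell receptor gene, and Gm47183, a transcript still to be verified, followed with 20 each and none within 1 kb. Cic, a transcriptional repressor, had 15 within chr7:25267522-25282605, 8 of them within 1 kb. The circadian clock gene Per1 had 15 within chr11:69092511-69100044, 4 of them within 1 kb. Zbtb16, Sertad2, Irf2bpl and Rab3c had 15 each and Coro2b 14. The pairs nearest to Rab3c were a median of 458485 bp from its 5′ end. Inside a peak in both libraries lay 15 of the 25 pairs of Ptma, 12 of the 20 of Klrb1c and 10 of the 20 of Gm47183. The genes with 15 pairs had 10 to 13 such pairs each, and Coro2b had all 14. Over all pairs the share was 86.0%.

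By gene list, pairs were nearest to 22 of 28 REST-bound neuronal genes (78.6%), and 13 had one within 1 kb (46.4%). Over all autosomal protein-coding genes these shares were 57.3% and 36.2%. Of these 28 genes, 10 had a pair with the REST consensus in both libraries, against 128 of all 20807 protein-coding genes. They were Vgf, Kcnh2, Chga, Npas4, Chgb, Chrnb2, Sez6, Snap25, Grin1 and Nefm, with 2 such pairs at Chga and at Npas4, and were named after their counts were seen. The secretory granule genes Chga and Chgb had 3 and 2 pairs in all, and Vgf, a neuropeptide precursor, 6. The list was chosen as genes known for REST sites, so its count is a description of where those sites were footprinted in lung.

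Housekeeping lists had pairs at many of their gene starts. Of all autosomal protein-coding genes, 57.3% were nearest to a pair and 36.2% had one within 1 kb. Of cytosolic ribosomal protein genes, 55 of 73 were nearest to a pair (75.3%) and 47 had one within 1 kb (64.4%), with 8 pairs nearest to Rplp0, 7 to Rpl29 and 7 to Rplp1, none of the last within 1 kb. Of respiratory chain genes, 59 of 82 were nearest (72.0%) and 47 had one within 1 kb (57.3%), with 8 at Ndufb4, 7 at Ndufa11 and 6 at Uqcrfs1. Genes of ciliated cells, which line the airways, were nearest at 16 of 20 (80%) and had a pair within 1 kb at 13 (65%). Rfx2 and Foxj1, regulators of motile cilia, had 6 and 4 pairs, and Tekt1, a cilium structural gene, 4.

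Genes of alveolar, endothelial and mesenchymal cells, the main tissues of the gas-exchange region, were nearest to pairs in these numbers, beside the 57.3% of all protein-coding genes nearest to a pair and the 36.2% with one within 1 kb. No test of a difference between the lists was made. Of alveolar epithelial genes, 11 of 18 were nearest to a pair (61.1%) and 7 had one within 1 kb (38.9%), shares close to those of all genes. The surfactant gene Sftpc had 4 pairs, 2 of them within 1 kb, Sftpb 3, 1 of them within 1 kb, and Lpcat1 3, none within 1 kb. Of endothelial genes, 11 of 18 were nearest (61.1%) but 2 had one within 1 kb (11.1%). Cdh5, the adhesion gene of endothelial junctions, was nearest to 8 pairs, Vwf to 6 and the factor gene Erg to 5, none of them within 1 kb. Of mesenchymal genes, 12 of 16 were nearest and 6 had one within 1 kb (37.5%), with 8 pairs at the collagen gene Col1a1, 4 at the elastin gene Eln and 3 at Myh11, 2 of each within 1 kb.

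Hox genes, which pattern the body axis and are clustered, were nearest to a pair at 13 of 39 (33.3%). They had one within 1 kb at 5 (12.8%). The shares over all autosomal protein-coding genes were 57.3% and 36.2%. Hoxb1 had 3 pairs, none within 1 kb, and Hoxc8 and Hoxa5 2 each, those of Hoxa5 within 1 kb. Of 15 protein-coding imprinted genes, expressed from 1 parental copy, 8 were nearest to a pair (53.3%) and 2 had one within 1 kb (13.3%). Peg3 had 7 pairs, 3 of them within 1 kb, and Peg10 and Dlk1 had 4 each, none within 1 kb.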

How the data were processed

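The authors aligned reads to mm10 and called each library on its own, per the listings deposited with the files. For aligner, callers and versions: not given in the sources used here. Deposited peak files hold a signal value per peak, scaled in a way not stated and used here only to rank peaks within 1 list; the smaller of the 2 peak lists of each library was used. Deposited footprint files hold 0.01, a p-value threshold, on every line, with no measurement of single footprints. The authors' per-base cut rate files, from which the footprints were derived, were not used. Sequence was GRCm38, with the coordinates of mm10. Genes were GENCODE M21 (33437 autosomal protein-coding and long noncoding genes, outermost 5′ end), and tRNA genes were from RefSeq. Consensus sequences were searched on both strands in the 41 bp around the footprint centre, and edges were measured in a 61 bp window. Computations used pandas 2.3.3, scipy 1.17.1, numpy 2.4.6 and matplotlib 3.10.9 under Python 3.11.15; the pairing and the search were tested on simulated data. The members, gene lists and consensus sequences were chosen with earlier results of these data known. Named pairs were the 10 widest, the 10 in the highest peaks and, for each consensus in at least 20 pairs, the 1 in the highest peak; genes were the 10 nearest to the most pairs and 3 for each list. Pairs on 1 autosome were counted and not named. Among the named pairs, 1 locus is not reported here.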

Additional observations from a re-analysis of the deposited data

Results flagged for a closer look

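Outside the autosomal rule, 698 pairs on the X chromosome met the same bounds of width and overlap. They were 10.5% of the 6674 footprints there in replicate 1 and 14.1% of the 4938 in replicate 2, and are in no comparison above.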

How the results depend on the processing

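The mean over both libraries moved with the bounds of the rule as follows. The 40506 pairs became 46908 at 18 bp, 26994 at 24 bp, 30435 at an overlap of 0.8 and 41176 at 1 bp of overlap. They were 36829 without soft-masked footprints and 34822 inside a peak in both libraries. In peaks of the top score decile in both libraries they were 10330, a setting chosen after seeing the data. The share inside a peak (90.01%) was 89.0% at 18 bp, 91.7% at 24 bp, 91.5% at an overlap of 0.8, 90.8% without soft-masked footprints, 90.9% with the larger peak list and 94.7% for 1 bp inside; it was 100% by construction for pairs inside peaks and for the top decile. The median percentile (83.0) was 96.4 in the top decile, also by construction, and 88.7 with the larger list. The share near a gene 5′ end (39.6%) was 41.03% at 18 bp, 34.99% at 24 bp, 39.1% at an overlap of 0.8, 39.8% at 1 bp of overlap, 40.3% without soft-masked footprints, 36.2% inside peaks, 80.4% in the top decile, 35.5% within 500 bp, 45.7% within 2500 bp and 46.4% for any transcript. The CTCF share (13.3%) was 11.8% at 18 bp, 17.5% at 24 bp, 14.3% at 0.8, 13.1% at 1 bp, 13.7% without soft-masked footprints, 14.9% inside peaks, 3.46% in the top decile, 30.4% with 1 mismatch, 13.1% in the footprint itself and 13.3% in 61 bp. Mean GC (61.8%) was 61.9% at 18 bp, 61.2% at 24 bp, 61.9% at 0.8, 67.6% in the top decile, 64.8% in the footprint itself and 59.8% in 61 bp. The cause of these shifts was not tested. Read from the members of 1 library only, the ranges were 89.5 to 90.5% inside a peak and 80.9 to 85.0 for the percentile. They were 39.6% near a 5′ end, 13.3% with CTCF and 61.7 to 61.8% GC. The pairs were still chosen with both libraries, and both members of a pair sit on the same DNA. The near-equal values for position, CTCF and GC follow from that and are no test of stability. No paired analysis was possible because the libraries form 1 group and no result comes from a test. Read depth is unknown, so whether it limits which footprints were paired was not tested.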
